A study of Mus musculus with 6 samples.

Results

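The transcripts described here are those of 10 mouse genes that detect nucleic acid in the cytosol or act directly downstream or upstream of that detection: Ddx58, Ifih1, Dhx58, Mavs, Zbp1, Tbk1, Ikbke, Trex1, Adar and Eif2ak2. They were picked by name from 54532 genes in the table, with earlier results of these data known. Of the 10 genes, 9 had a mean of at least 1 FPKM (fragments per kilobase of gene model and library size) over all libraries and were among the 8882 genes tested. Trex1 was listed at 0 throughout.

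Macrophages of C57BL/6J mice were seeded at 2000000 cells in each well, left overnight and, according to the labels, exposed for 6 h to Candida albicans at 1 fungal cell per macrophage. The groups were wild type (WT, replicates 1, 2 and 3) and progranulin knock out (PGRN KO, replicates 4, 5 and 6), from mice without a working Grn, the gene for the secreted glycoprotein progranulin. By these labels and the study text, all libraries came from cells given the fungus, so the comparison was between genotypes during infection. The sample titles of the WT libraries also carry the word control, which those of PGRN KO lack. The labels place the macrophages in the peritoneal cavity, whereas the study text speaks of bone marrow-derived macrophages, and it also gives another ratio of fungus to cells. Neither the source nor the ratio was settled here, and the labels were followed. According to the study's methods, the WT and PGRN KO mice came from different suppliers, so that genotype and colony cannot be told apart. Nothing states that libraries of a group came from separate animals, and p-values measure the spread between these libraries, which may be technical.

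Cells recognise foreign or misplaced nucleic acid with dedicated receptors. RIG-I (from Ddx58) and MDA5 (from Ifih1) are helicases that bind double-stranded RNA and signal through the mitochondrial adaptor MAVS, while LGP2 (from Dhx58) has the helicase but no signalling domain and modulates the other two. The kinases TBK1 and IKKε phosphorylate interferon regulatory factors downstream, ZBP1 senses Z-form nucleic acid and can trigger necroptosis, PKR (from Eif2ak2) halts translation when it binds double-stranded RNA, and ADAR1 and TREX1 limit the signal by editing RNA and degrading DNA. Many of these genes are themselves induced by interferon.

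Short stretches of 3 genes (from RefSeq promoters on GRCm38.p6) show the feature that several of these genes share at their starts. The letters searched were GAAANNGAAA, the core of the interferon-stimulated response element (ISRE), which interferon regulatory factors and the STAT complex ISGF3 are known to bind. Each stretch is printed 5′ to 3′ in the direction of transcription with the matched core in capitals, and all of them lie on the minus strand of the chromosome.
Ifih1, chr2:62646206-62646233: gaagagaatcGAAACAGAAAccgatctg
Ddx58, chr4:40239804-40239833: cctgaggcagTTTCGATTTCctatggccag
Eif2ak2, chr17:78882535-78882564: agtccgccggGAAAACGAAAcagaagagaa
The core began 32, 2 and 18 bases downstream of the annotated start in Ifih1, Ddx58 and Eif2ak2, respectively, and in Ddx58 it read on the opposite strand.

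Promoters from 250 bases before to 50 bases after the start were on hand for 8 of the 10 genes. Dhx58 and Zbp1 were not searched. The ISRE core, searched on both strands, was found in 3 of these 8 genes, and in 3.99% of the 27025 genes with a promoter. Of the tested genes with a promoter, 4.27% held it. A STAT site (TTCNNNGAA) was found in Adar and Eif2ak2, against 9.55% of genes and 8.17% of tested genes, and it overlapped no ISRE core in them. A kappa B core (GGGNNNNNCC) was found in Adar, Eif2ak2, Tbk1 and Trex1, against 53.5% of genes and 72.9% of tested genes. A match is a description of letters in this window only. Of the 3 genes with an ISRE core, Ddx58 differed between genotypes past the threshold with all libraries, and Ifih1 and Eif2ak2 did not. This split depended on the libraries used. Without PGRN KO replicate 6, Eif2ak2 passed too (limma adjusted p = 0.00921). Without WT replicate 1 or 3, Ddx58 did not (limma adjusted p = 0.0608 and 0.0529).

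The libraries held 15996786 to 17551619 fragments. Grn was at 323, 337 and 325 FPKM in WT and at 0.0166, 0 and 0.0167 FPKM in PGRN KO, as the labels state. PGRN KO replicate 6 stood apart from the other libraries. Its deviations from the mean of all libraries fell with gene length (Spearman −0.471 across tested genes, which are not independent), whereas in the other 5 libraries the same value lay between 0.151 and 0.243. The counts of sensing genes and of each pathway list past the threshold are therefore also given without this library.
All 7 macrophage markers were detected, summing to 7091 to 7423 FPKM in WT and 7235 to 9725 FPKM in PGRN KO, and 2 of the 7 were higher and 2 lower in PGRN KO without overlap. Lyz2 made up most of the sum, while Mertk was higher (1.41 against 3.24 FPKM, limma adjusted p = 0.00640) and Csf1r lower (32.5 against 24.7 FPKM, limma adjusted p = 0.0178). Gata6, a factor that defines resident peritoneal macrophages, was at 3.78 to 4.26 FPKM in WT and 3.84 to 5.07 FPKM in PGRN KO, with overlapping groups. Of the other resident markers, Icam2 was higher in PGRN KO without overlap (2.94 to 3.26 against 4.49 to 5.43 FPKM, limma adjusted p = 0.00914), and Timd4, at most 0.204 FPKM, was lower without overlap. Summed B cell markers were at 1.501 to 2.49 FPKM in WT and 6.62 to 8.92 FPKM in PGRN KO (5 of 5 without overlap), and summed mast cell markers were at 2.01 to 2.76 and 8.97 to 13.7 FPKM (4 of 4). Summed T or NK cell markers were at 1.05 to 1.149 and 1.87 to 2.52 FPKM (3 of 5 without overlap), and summed fibroblast or mesothelial markers at 0.323 to 0.602 and 0.829 to 1.61 FPKM (3 of 5). Of the neutrophil markers, S100a8 accounted for nearly all of a sum of 48.3 to 53.0 FPKM in WT and 21.2 to 26.04 FPKM in PGRN KO, while Ly6g and Elane were at 0. Eosinophil and plasmacytoid dendritic cell markers summed to at most 0.199 and 0.111 FPKM, with Epx, Prg2 and Klk1 at 0. The counts of markers without overlap are to be read beside the 48.8% of all tested genes that did not overlap, in one direction or the other. The part of these cell types in the results below was not tested, and in bulk RNA fewer cells of a type and less RNA per cell cannot be told apart.

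RIG-I and LGP2 transcripts were higher in PGRN KO macrophages, by about the same amount, whereas the MDA5 transcript differed by less than its spread. Of the 9 tested genes, 2 passed the threshold, Ddx58 and Dhx58, both higher in PGRN KO, and limma placed 0 lower, at an unadjusted p under 0.05 as well. Over all tested genes, 24.2% passed in either direction, 10.4% higher and 13.8% lower, so that a share of 2 in 9 was near the background. On a scale on which every library has the same sum (TPM), the calls over all genes split into 922 higher and 608 lower, in place of 921 and 1230. Fitted differences were above 0 for all 9 tested genes, with a median of 0.22 on the log2 scale beside −0.03 over all tested genes, 46.7% of which were above 0. Without PGRN KO replicate 6, 5 of the 9 passed, all higher, beside 41.3% of all genes in either direction (1438 higher and 2230 lower).

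**Figure D1:**
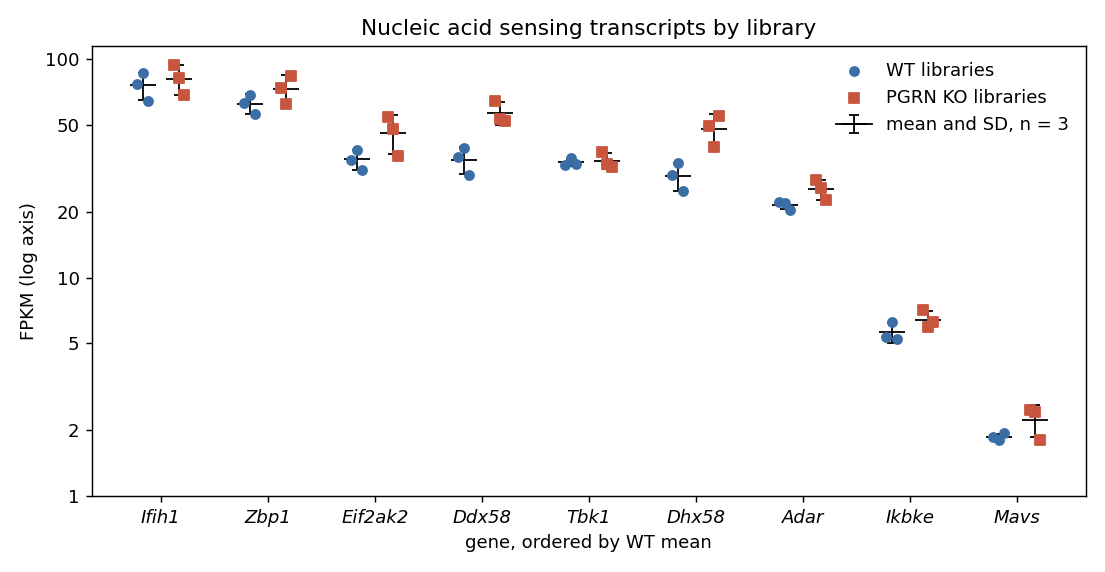
FPKM of the 9 detected genes in each library on a log axis, with WT as blue circles, PGRN KO as red squares and the mean with its SD (n = 3) in black. Ddx58 and Dhx58 show a gap between the genotypes, whereas for Ifih1, Zbp1 and Tbk1 the points of both genotypes share a range.

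Among the RNA helicases, Ddx58 (chromosome 4, 40203773 to 40239828, GRCm38), which encodes the receptor for RNA with a 5′ triphosphate, stood at 35.4, 39.1 and 29.4 FPKM in the WT libraries (replicates 1, 2 and 3, in this order throughout). The PGRN KO libraries (replicates 4, 5 and 6, likewise) held 64.3, 53.1 and 52.1 FPKM. Every PGRN KO library lay above every WT library, as was the case for 48.8% of all tested genes in one direction or the other. The means were 34.6 ± 4.93 and 56.5 ± 6.78 FPKM (SD, n = 3 each), a ratio of 1.63. The log2 fold change of FPKM + 1 was 0.69 ± 0.14 (SE; 95% interval 0.37 to 1.02; limma adjusted p = 0.0140). It rested on 3734 to 7850 fragments per library. The call was lost without WT replicate 1 (limma adjusted p = 0.0608) and without WT replicate 3 (limma adjusted p = 0.0529), and over all alternatives that p ranged from 0.00108 to 0.0608.

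Dhx58 (chromosome 11, 100694884 to 100704271), the gene for the regulatory helicase LGP2, was at 29.4, 33.4 and 24.8 FPKM in WT. The PGRN KO libraries held 49.5, 39.6 and 54.9 FPKM. The groups did not overlap, and the highest value was that of PGRN KO replicate 6, in contrast to Ddx58, for which that library was the lowest of the PGRN KO group. The means were 29.2 ± 4.29 and 48.0 ± 7.73 FPKM, a ratio of 1.64. Its log2 fold change was 0.70 ± 0.16 (SE; 95% interval 0.33 to 1.06; limma adjusted p = 0.0209), on 1465 to 3103 fragments per library. The call was lost when genes of low FPKM were also tested (limma adjusted p = 0.0614), without WT replicate 1 (limma adjusted p = 0.0785), without WT replicate 3 (limma adjusted p = 0.0762) and without PGRN KO replicate 4 (limma adjusted p = 0.0606). Over all alternatives it ranged from 0.00337 to 0.0785. An antisense gene, Dhx58os, covers 4.31% of the exonic bases of Dhx58 and was listed at 0.0750 to 0.326 FPKM. The sources used here do not say whether strand was read in counting.
Dhx58 lies 1.73 Mb from Grn on chromosome 11. Of the 34 tested genes between them, 5 were higher and 2 were lower in PGRN KO, a share of 20.6%. Over all tested genes the share was 24.2%, with 10.4% higher and 13.8% lower. Of the tested genes nearest to Dhx58, Nkiras2 was higher (a log2 change of 0.51, limma adjusted p = 0.00819). Rab5c (0.33, limma adjusted p = 0.117), Ghdc (0.06, limma adjusted p = 0.778) and Dnajc7 (0.08, limma adjusted p = 0.59) did not pass.

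Ifih1 (chromosome 2, 62595798 to 62646255), which encodes the receptor for long double-stranded RNA, was at 76.4, 86.0 and 64.5 FPKM in WT and at 93.8, 81.7 and 68.1 FPKM in PGRN KO. The ranges overlapped, with 2 of the 3 PGRN KO libraries inside the WT range. Its log2 fold change was 0.10 ± 0.15 (SE; 95% interval −0.27 to 0.46; limma adjusted p = 0.668), although 9499 to 13261 fragments were counted per library. Its direction turned, to −0.01, without WT replicate 3 or without PGRN KO replicate 4.

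The helicases were also compared with each other inside each library, where a scaling of the whole library cancels. A trend with gene length, as in PGRN KO replicate 6, does not cancel between genes of unlike length. The gene models span 8165 bases for Ifih1, 7050 for Ddx58, 3272 for Dhx58, 9018 for Ikbke and 3910 for Tbk1. The part of length in these ratios was not tested. For each WT library the ratio of Ifih1 to Ddx58 FPKM was 2.16, 2.20 and 2.20, and for each PGRN KO library it was 1.46, 1.54 and 1.31. The mean ratio was 2.18 ± 0.0228 (SD, n = 3) for WT against 1.44 ± 0.117 for PGRN KO, a log2 difference of −0.61. The WT libraries thus differed in the level of both genes and hardly in their ratio, and the genotypes did not overlap. The ratio of Dhx58 to Ifih1 was 0.385, 0.388 and 0.385 in WT and 0.528, 0.485 and 0.805 in PGRN KO, a log2 difference of 0.61 that was 0.39 without PGRN KO replicate 6. The ratio of Ikbke to Tbk1 was 0.163, 0.178 and 0.158 in WT and 0.190, 0.179 and 0.195 in PGRN KO, a log2 difference of 0.18. For each of the 3 ratios the exact two-sided permutation p was 0.1 (adjusted p = 0.1), which is the smallest that 3 against 3 libraries allow, so that the test could not pass 0.05.

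**Figure D2:**
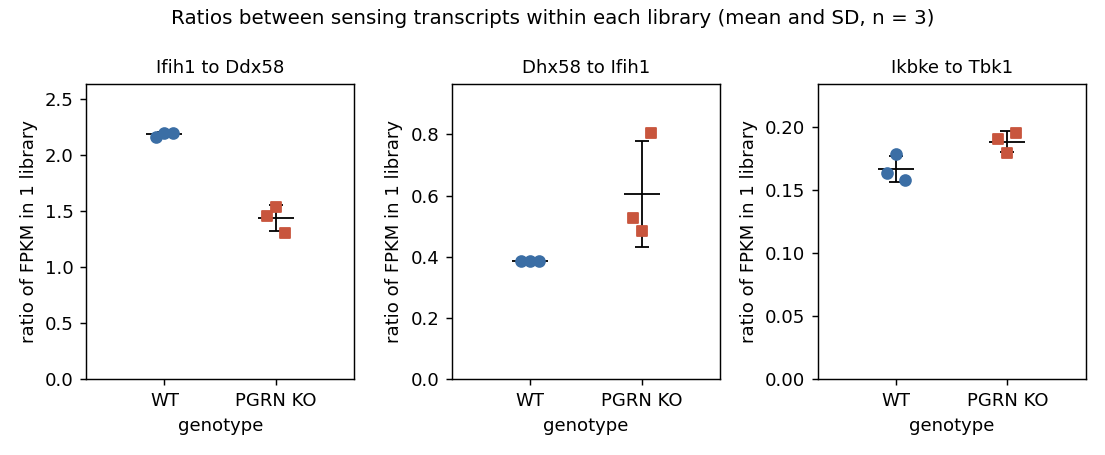
Ratio of FPKM between pairs of sensing transcripts in each library, with WT as blue circles, PGRN KO as red squares and the mean with its SD (n = 3) in black. The Ifih1 to Ddx58 ratio sits at 2.16 to 2.20 in WT and at 1.31 to 1.54 in PGRN KO, and the Dhx58 to Ifih1 ratio of 0.805 belongs to PGRN KO replicate 6.

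Neither the adaptor nor the kinases passed the threshold. Mavs (chromosome 2, 131234063 to 131248025), the mitochondrial adaptor of both RIG-I and MDA5, was the lowest of the detected genes, at 1.86, 1.80 and 1.94 FPKM in WT and 2.47, 2.43 and 1.82 FPKM in PGRN KO. Only PGRN KO replicate 6 fell within the WT range. Its log2 fold change was 0.17 ± 0.11 (SE; limma adjusted p = 0.294) on 89 to 154 fragments per library, and without PGRN KO replicate 6 it was 0.27 (limma adjusted p = 0.0293).

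Tbk1 (chromosome 10, 121546455 to 121586787), the kinase shared by the RNA and DNA sensing routes, was at 32.7, 35.2 and 33.1 FPKM in WT and 37.4, 33.1 and 32.0 FPKM in PGRN KO. The groups lay on top of each other, and the log2 fold change was 0.02 ± 0.09 (SE; 95% interval −0.20 to 0.24; limma adjusted p = 0.903). It turned to −0.001 without WT replicate 1 and to −0.048 without PGRN KO replicate 4. Ikbke (chromosome 1, 131254343 to 131279606), which encodes the related kinase IKKε, was at 5.34, 6.28 and 5.24 FPKM in WT and 7.11, 5.92 and 6.25 FPKM in PGRN KO. Its ranges overlapped as well (a log2 change of 0.17 ± 0.11, limma adjusted p = 0.286). Antisense genes Gm28913 and Gm28914 cover 0.721% and 1.76% of its exonic bases. They were listed at 0.954 to 5.22 FPKM and at 0.101 to 0.260 FPKM, respectively.

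Zbp1 (chromosome 2, 173206612 to 173218923), the sensor of Z-form nucleic acid, was at 62.6, 68.7 and 55.7 FPKM in WT and 73.6, 61.9 and 83.9 FPKM in PGRN KO. PGRN KO replicate 5 lay inside the WT range. The log2 fold change of 0.22 ± 0.14 (SE) did not pass (95% interval −0.11 to 0.55; limma adjusted p = 0.276), and it was 0.12 without PGRN KO replicate 6.

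Eif2ak2 (chromosome 17, 78852564 to 78882573), the gene for PKR, was at 34.7, 38.5 and 30.9 FPKM in WT and 54.2, 47.6 and 36.1 FPKM in PGRN KO. PGRN KO replicates 4 and 5 lay above all WT libraries and replicate 6 lay among them. The log2 fold change was 0.38 ± 0.16 (SE; limma adjusted p = 0.129), and without PGRN KO replicate 6 it was 0.54 (limma adjusted p = 0.00921). Gm26637 and n-R5s29 on the opposite strand cover 3.403% and 0.919% of its exonic bases. They were listed at 0.678 to 1.31 FPKM and at 0 to 2.27 FPKM, respectively.

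Adar (chromosome 3, 89715022 to 89753446), which encodes the RNA editing enzyme ADAR1, was at 22.2, 21.9 and 20.4 FPKM in WT and 27.9, 25.6 and 22.6 FPKM in PGRN KO. The groups did not overlap, but the log2 fold change of 0.23 ± 0.10 (SE; 95% interval −0.02 to 0.47) did not pass the test (limma adjusted p = 0.148). Without PGRN KO replicate 6 it was 0.30 (limma adjusted p = 0.0133), and with each library corrected for gene length it was 0.36 (limma adjusted p = 0.00849). Exons of Chrnb2, a gene on the opposite strand listed at 0.153 to 0.358 FPKM, cover 16.8% of the exonic bases of Adar. With the length correction, 3 of the 9 tested genes passed (Ddx58, Dhx58 and Adar), beside 31.7% of all genes in either direction (1368 higher and 1447 lower).

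**Figure D3:**
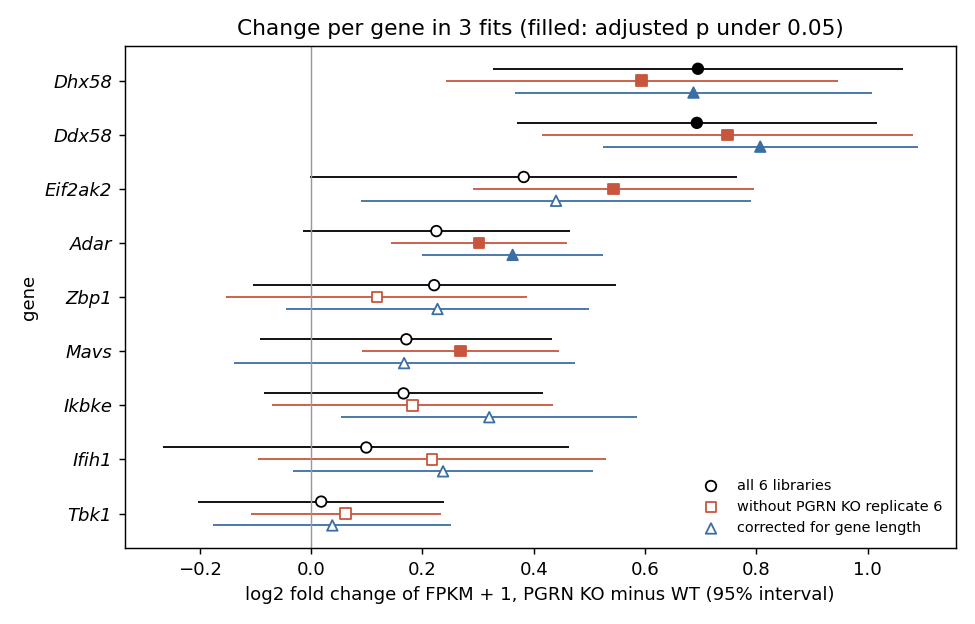
Log2 fold change of FPKM + 1, PGRN KO minus WT, with its 95% interval for each tested gene in a fit of all 6 libraries (black circles), without PGRN KO replicate 6 (red squares) and after correction of each library for gene length (blue triangles). Filled symbols passed an adjusted p of 0.05, and Ddx58 and Dhx58 are filled in each of these fits, whereas Adar, Eif2ak2 and Mavs are filled in some of them.

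Trex1 (chromosome 9, 109057933 to 109059734), the gene for the main cytosolic DNA exonuclease, was listed at 0 in all 6 libraries. In the GENCODE annotation of GRCm38, 100% of its 1147 exonic bases lie within exons of Atrip, a gene of DNA damage signalling on the same strand, and Atrip was listed at 0.694 to 1.23 FPKM. Of 133 protein-coding genes whose exons lie wholly within those of other genes on the same strand, 123 (92.5%) were at 0 in every library. Among 20207 protein-coding genes that share no exonic base, 6497 (32.2%) were at 0 in every library. Counting tools of the kind the authors used leave out by default a fragment that could belong to either of 2 genes, and the sources used here do not name the setting. The part of this setting in the value of 0 was not tested, and no comparison of Trex1 was made.

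**Figure D4:**
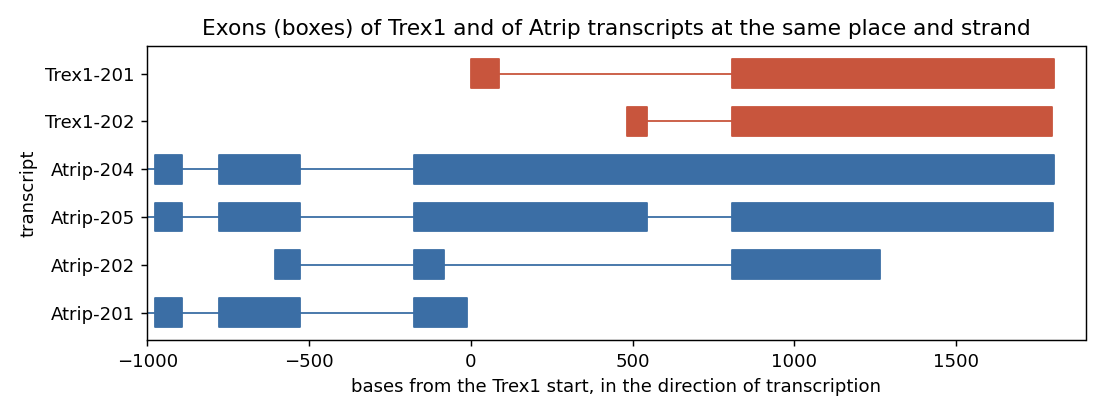
Exons (boxes) and introns (lines) of the 2 Trex1 transcripts in red and of 4 Atrip transcripts in blue, drawn to scale as distance in bases from the Trex1 start in the direction of transcription. Every Trex1 exon has an Atrip exon at the same place, and the Atrip transcripts other than Atrip-202 extend beyond the left edge.

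Per gene length, the order of mean levels in WT was Ifih1, Zbp1, Eif2ak2, Ddx58, Tbk1, Dhx58, Adar, Ikbke and Mavs. Ifih1 and Zbp1 shared a range, and so did each neighbouring pair from Eif2ak2 to Dhx58, whereas Adar, Ikbke and Mavs each lay apart from the gene before. In PGRN KO the order was Ifih1, Zbp1, Ddx58, Dhx58, Eif2ak2, Tbk1, Adar, Ikbke and Mavs, with every neighbouring pair down to Tbk1 sharing a range. Dhx58 thus stood after Tbk1 in WT and before it in PGRN KO, where the lowest Dhx58 value (39.6 FPKM) was above the highest Tbk1 value (37.4 FPKM).

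As a description over 6 libraries that share their scaling, the pair with the highest Pearson r of log2(FPKM + 1) was Adar and Eif2ak2 (0.974), and Mavs and Zbp1 had the lowest (−0.084). Ddx58 and Dhx58 had an r of 0.918. Of the tested genes outside the 10, Tcea1 was most like Ddx58 (r = 0.9994) and Slc25a12 most like Dhx58 (r = 0.9968). With 6 libraries such values are common, since 171 and 221 genes had an r above 0.95 with Ddx58 and Dhx58.

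The wider pathway was described with lists of genes around each step, whose counts are to be read beside the 24.2% of all tested genes that passed. Among 17 tested cofactors of the RNA helicases, 2 rose and 3 fell, 12 did not pass, and the median log2 fold change was −0.22. Ddx60, a helicase of the interferon response linked to RIG-I, rose from 5.06 ± 0.566 to 10.8 ± 2.68 FPKM (a log2 change of 0.94, limma adjusted p = 0.0116). Rnf135, the ubiquitin ligase that activates RIG-I, rose from 1.75 ± 0.133 to 4.03 ± 0.727 FPKM (0.86, limma adjusted p = 0.00569). The members that fell were Dhx9, an RNA helicase, from 8.91 to 4.75 FPKM (−0.79, limma adjusted p = 0.00549), G3bp1, a core protein of stress granules (−0.57, limma adjusted p = 0.00942), and Dhx15, a splicing helicase (−0.47, limma adjusted p = 0.0256). Trim25, the other ubiquitin ligase known for RIG-I, was named for its role and was at 160 ± 5.65 and 163 ± 20.7 FPKM (0.02, limma adjusted p = 0.907). The call of Ddx60 was lost without WT replicate 3 (limma adjusted p = 0.0522), that of G3bp1 without WT replicate 2 (limma adjusted p = 0.0502), and that of Dhx15 without any 1 of the WT replicates or PGRN KO replicate 5 (limma adjusted p from 0.0504 to 0.106). Dhx15 was also not past the threshold on the TPM scale (limma adjusted p = 0.105) and with no filter on low values (limma adjusted p = 0.0593). Leaving out PGRN KO replicate 6, 10 of the 17 passed, beside 41.3% of all tested genes.

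Of 20 tested adaptors and partners of MAVS and TBK1, 1 rose, 1 fell and 18 did not pass, with a median of 0.05. Azi2, an adaptor that binds TBK1 and IKKε, rose from 17.1 ± 1.14 to 25.3 ± 3.10 FPKM (a log2 change of 0.53, limma adjusted p = 0.0172), and the call was lost without any 1 of the WT replicates (limma adjusted p from 0.0530 to 0.0781). Pcbp2, which promotes degradation of MAVS, fell from 34.9 ± 0.710 to 28.5 ± 1.25 FPKM (−0.28, limma adjusted p = 0.0431). This call was lost on the TPM scale (limma adjusted p = 0.215) and without any 1 library other than PGRN KO replicate 6 (limma adjusted p from 0.0681 to 0.171). It was also lost with quantile normalization (limma adjusted p = 0.0993) and with no filter on low values (limma adjusted p = 0.0532). The interferon regulatory factors that TBK1 activates, named for their role, did not pass. Irf7 was at 116 ± 10.7 and 177 ± 48.5 FPKM (0.57, limma adjusted p = 0.0775) and Irf3 at 2.97, 2.73 and 3.28 FPKM in WT and 3.62, 3.85 and 5.24 FPKM in PGRN KO (0.38, limma adjusted p = 0.0832). The count was 7 of the 20 without PGRN KO replicate 6, beside 41.3% of all tested genes.

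Of 15 tested genes of DNA sensing, 1 rose and 14 did not pass, with a median of 0.11. The gene that rose was Mre11a, a DNA break repair nuclease, from 0.945 ± 0.0886 to 1.52 ± 0.0515 FPKM (a log2 change of 0.37, limma adjusted p = 0.0266). Its call was lost on the TPM scale (limma adjusted p = 0.0550) and without any 1 library other than PGRN KO replicate 6 (limma adjusted p from 0.0594 to 0.123). It was also lost with no filter on low values (limma adjusted p = 0.0795). Cgas, the cytosolic DNA sensor itself, was named for its role and was at 5.36 ± 0.156 and 7.00 ± 1.69 FPKM (0.31, limma adjusted p = 0.181). The count was 5 of the 15 without PGRN KO replicate 6, beside the same 41.3%.

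Of 12 tested genes of nucleic acid clearance, 5 rose, 1 fell and 6 did not pass, with a median of 0.41. Samhd1, which depletes deoxynucleotides, was at 16.0, 16.4 and 14.2 FPKM in WT and 41.4, 31.2 and 41.3 FPKM in PGRN KO (a log2 change of 1.23, limma adjusted p = 0.00216). Xrn1, the cytoplasmic 5′ to 3′ exoribonuclease, rose from 2.56 ± 0.261 to 5.06 ± 1.52 FPKM (0.74, limma adjusted p = 0.0334), a call that was lost without any 1 library other than PGRN KO replicate 6 (limma adjusted p from 0.0758 to 0.110), on the TPM scale (limma adjusted p = 0.0550) and with no filter on low values (limma adjusted p = 0.0978). Pnpt1, which degrades RNA in mitochondria, rose from 9.43 ± 0.986 to 16.1 ± 2.68 FPKM (0.70, limma adjusted p = 0.0138), and did not pass without WT replicate 1 (limma adjusted p = 0.0652) or 3 (limma adjusted p = 0.0612). The gene that fell was Pld4, an endolysosomal exonuclease, at 11.2, 11.3 and 11.4 FPKM in WT and 5.10, 4.90 and 5.90 FPKM in PGRN KO (−0.97, limma adjusted p = 0.00146). Over all tested genes, 24.2% passed. When PGRN KO replicate 6 was left out, 9 of the 12 passed, beside 41.3% of all tested genes.

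Of the 8 partners of ZBP1 in cell death, 2 rose, 3 fell and 3 did not pass, with a median of −0.12. Mlkl, the executioner of necroptosis, was at 34.4, 38.9 and 32.7 FPKM in WT and 78.2, 60.4 and 82.4 FPKM in PGRN KO (a log2 change of 1.03, limma adjusted p = 0.00443), and Casp8, the protease that restrains necroptosis, rose from 19.7 ± 0.811 to 28.8 ± 3.48 FPKM (0.52, limma adjusted p = 0.0155). Ticam1, the adaptor TRIF, fell from 14.2 ± 0.594 to 9.57 ± 0.478 FPKM (−0.52, limma adjusted p = 0.00726), as did Fadd, an adaptor of Casp8 (−0.39, limma adjusted p = 0.0198), and Ripk1 (−0.33, limma adjusted p = 0.0415). Fadd and Ripk1 were not past the threshold on the TPM scale (limma adjusted p = 0.0814 and 0.192). The call of Ripk1 was also lost with the gene length correction (a log2 change of −0.19, limma adjusted p = 0.112), with quantile normalization (limma adjusted p = 0.0585) and with no filter (limma adjusted p = 0.0787). Without 1 library, the call was lost for Casp8 (any WT replicate, limma adjusted p from 0.0574 to 0.0753), Ticam1 (WT replicate 1, 0.0516), Fadd (any but PGRN KO replicate 6, 0.0578 to 0.0845) and Ripk1 (any WT replicate or PGRN KO replicate 5, 0.0994 to 0.146). Ripk3, the kinase that activates MLKL and named for its role, was at 36.3 ± 2.26 and 35.2 ± 5.09 FPKM (−0.05, limma adjusted p = 0.772). The count without PGRN KO replicate 6 was also 5 of the 8, where 24.2% of all tested genes passed with that library and 41.3% without it.

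In the PKR arm, 2 of 12 tested genes fell and 10 did not pass, with a median of −0.20. Ppp1r15a, the phosphatase subunit GADD34 that reverses the translation block, was at 121, 143 and 125 FPKM in WT and 82.1, 75.2 and 101 FPKM in PGRN KO (a log2 change of −0.59, limma adjusted p = 0.0214). Its call was lost without any 1 of the libraries other than PGRN KO replicate 6 (limma adjusted p from 0.0572 to 0.0914) and with no filter on low values (limma adjusted p = 0.0589). Without PGRN KO replicate 6, 5 of the 12 passed, beside 41.3% of all tested genes.

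**Figure D5:**
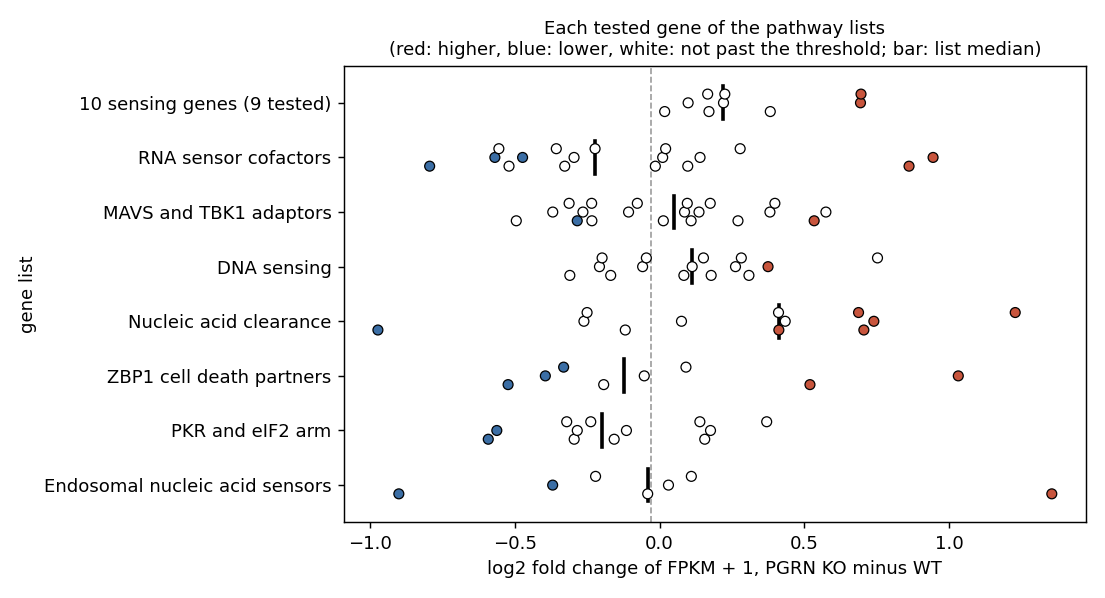
Log2 fold change of FPKM + 1, PGRN KO minus WT, of each tested gene in each list, filled red where it was higher and blue where it was lower past an adjusted p of 0.05, white where it did not pass, with a black bar at the list median and a dashed line at the median of all tested genes (−0.03). Calls in both directions stand in 5 of the lists, and the median of the nucleic acid clearance list is 0.41.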

How the data were processed

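Polyadenylated RNA of 6 libraries (3 WT and 3 PGRN KO) was sequenced. The submitters' processing notes name CASAVA, HISAT2 2.0.5, featureCounts 1.5.0-p3, DESeq2 1.20.0 and the builds mm10 and GRCm38, whereas the study's methods name HISAT and HTSeq. The authors deposited FPKM per gene and library. FPKM times gene length came out as whole fragments within 0.001 for 100% of values, which gave the depth, and precision from it covers counting error only. The library sizes recovered in this way ran from 14790124 to 18932185, while the fragments summed to 15996786 to 17551619. The FPKM thus carry a scaling other than the fragment total, and its part in the results was not tested. The table also gives a gene length, which is a property of the gene model and not of a sample.

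FPKM were analysed as log2(FPKM + 1), which understates changes of low genes, for genes with a mean of at least 1. The test was that of limma 3.58.1 under R 4.3.3, two-sided and with genotype as the only term (empirical Bayes with a trend of the variance on the mean), with Benjamini-Hochberg adjustment over all 8882 tested genes and a threshold of 0.05. Since the deposited values are FPKM, limma on this scale took the place of the authors' DESeq2. The alternative with voom on the recovered fragments used the same library sizes as the FPKM, so it does not check that scaling. Ratios were compared with exact permutation tests. The limma step was tested on simulated data without a length trend or an outlying library, which checks the code and not the calls in these data.

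Genes named are the 10 genes, Grn, the 3 largest called changes in each direction in each list, and the gene most like each called gene. Under the same rule, overlapping genes and the tested genes nearest to Dhx58 are named. 1 gene under this rule is counted in the totals and not reported here by name. Others are named for their role after their values were known. The genes and the 8 pathway lists were chosen with earlier results of these data known. Where a symbol had 2 identifiers, the longer gene model was used. Promoters are from RefSeq, GRCm38.p6. Proteins and a Trex1 ratio were not analysed here.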

Additional observations from a re-analysis of the deposited data

How the results depend on the processing

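No paired analysis was possible because the replicate numbers of the groups, 1 to 3 and 4 to 6, are not shared. The Trex1 to Adar ratio and protein features could not be computed. Apart from the limit on the size of the change, under which no sensing gene passed, Ddx58 kept its call in 14 of 16 alternatives and Dhx58 in 12 of 16. Adar was past the threshold in 3 of 16, Eif2ak2 in 2 of 16 and Mavs in 2 of 15, while Ifih1, Zbp1, Tbk1 and Ikbke passed in none. The 22 other genes with the largest called changes in the lists kept call and direction in 280 of 346 comparisons. They lost the call in 66 and reversed in 0, again apart from that limit. Why calls moved was not tested, and a fit with 1 library left out also has fewer libraries.

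With no filter on low values, all calls numbered 1366, with 1 of the sensing genes, 1 of the MAVS and TBK1 adaptors, 0 of DNA sensing and 1 of the PKR arm. With a mean FPKM of at least 5, 0 of DNA sensing and 1 endosomal sensor passed. On the TPM scale 3 ZBP1 partners passed. Quantile normalization gave 4 MAVS and TBK1 adaptors. Sample quality weights, which gave PGRN KO replicate 6 a weight of 0.0899 and the other libraries 1.07 to 3.79, gave 4225 calls, with 5 of the sensing genes, 11 RNA cofactors, 10 adaptors, 7 of DNA sensing, 10 of clearance, 5 of the PKR arm and 5 endosomal sensors. The gene length correction gave 9 RNA cofactors, 7 adaptors, 4 of DNA sensing and 4 of the PKR arm. With voom on recovered fragments, 4 adaptors and 2 of DNA sensing passed. When the size of the log2 change also had to reach 1, 233 genes passed, with 0 of the sensing genes, 0 RNA cofactors, 0 adaptors, 0 of DNA sensing, 1 of clearance, 1 ZBP1 partner, 0 of the PKR arm and 1 endosomal sensor.

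Leaving out each library in turn gave 713 (without WT replicate 1) to 3668 (without PGRN KO replicate 6) calls over all genes, and 0 (without WT replicate 1 or 3) to 5 (without PGRN KO replicate 6) of the sensing genes, 1 without PGRN KO replicate 4. It gave 3 to 10 RNA cofactors, 0 to 7 adaptors, 0 to 5 of DNA sensing, 2 to 9 of clearance, 1 to 5 ZBP1 partners, 1 to 5 of the PKR arm and 2 to 5 endosomal sensors. The log2 fold change of Ifih1 ranged from −0.01 to 0.22 and that of Tbk1 from −0.048 to 0.062.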

Other observations

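The endosomal receptors, which read nucleic acid taken up from outside the cell and not from the cytosol, moved in both directions. Of 7 tested genes, 1 rose and 2 fell, 4 did not pass, and the median log2 fold change was −0.04. Tlr3, the endosomal receptor for double-stranded RNA, was at 1.65, 2.04 and 1.597 FPKM in WT and 7.84, 5.68 and 4.91 FPKM in PGRN KO (a log2 change of 1.35 ± 0.16, limma adjusted p = 0.00297). Tlr13, which recognises bacterial ribosomal RNA, was at 13.3, 12.9 and 12.9 FPKM in WT and 6.95, 7.55 and 5.26 FPKM in PGRN KO (−0.90 ± 0.13, limma adjusted p = 0.00509). Every PGRN KO library lay above every WT library for Tlr3 and below for Tlr13, where 48.8% of all tested genes did not overlap either. The calls of both genes were kept in each alternative in which the gene was tested. The exception was that Tlr13 did not reach a log2 change of 1 where that size was also required. Slc15a4, a lysosomal transporter needed for endosomal TLR signalling, fell from 4.49 ± 0.337 to 3.25 ± 0.236 FPKM (−0.37, limma adjusted p = 0.0317), a call that was lost on the TPM scale (limma adjusted p = 0.119) and without any 1 library other than PGRN KO replicate 6 (limma adjusted p from 0.0711 to 0.127). Tlr7, the receptor for single-stranded RNA, named for its role, was at 54.4 ± 7.49 and 55.8 ± 9.08 FPKM (0.03, limma adjusted p = 0.899). Leaving out PGRN KO replicate 6, 5 of the 7 passed, beside 41.3% of all tested genes.

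Of the 8 interferon transcripts, 2 were tested and 0 passed in limma, with 0 at an unadjusted p under 0.05 and 0 with limma voom on the recovered fragments or without PGRN KO replicate 6. Ifnb1, the gene for interferon beta that these sensors induce, was at 5.66, 6.94 and 3.62 FPKM in WT and 7.39, 5.42 and 8.95 FPKM in PGRN KO, with overlapping groups (a log2 change of 0.38 ± 0.24, limma adjusted p = 0.274). Ifng was at 9.96 ± 1.08 and 9.86 ± 2.27 FPKM (−0.03, limma adjusted p = 0.908). Ifna2, Ifna4, Ifna5, Ifnl2 and Ifnl3 were listed at 0 in every library, and Ifna1 rested on 1 fragment in PGRN KO replicate 4.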
